A study of Mus musculus with 30 samples.

Results

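The cells described here are 24-month mouse cardiac fibroblasts, treated with MGT, in which the transcripts of all 3 reprogramming factors were seen in the same single-cell barcode. MGT stands for Mef2c, Gata4 and Tbx5. Of 6796 barcodes in the 24-month single-cell matrix, 5773 had at least 500 detected genes and under 20% mitochondrial counts. Of these, 235 barcodes (4.07%, exact binomial 95% interval 3.58% to 4.61%) held at least 1 unique molecular identifier (UMI, here 1 count) of each factor. In 2523 kept barcodes (43.7%) none of the 3 factors was seen, and these served as the comparison. The rule used only the counts of the 3 factors, so those counts are given as a description.

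The single-cell series has 2 libraries, both of wild-type (WT) heart fibroblasts given MGT: 1 from 24-month animals and 1 from neonatal animals of postnatal days 1 to 3. The day of collection of these cells and the way the factors were delivered are not given in the sources used here, and no single-cell library of cells without MGT was analysed. Bulk libraries used beside them came from WT fibroblasts at day 3 after MGT or LacZ, a control gene, with 2 libraries per group at 18 months, 3 months and neonatal age. The deposited columns of the 18-month libraries carry the name 15 months, and the titles of the LacZ libraries also carry the word MGT. Untreated 24-month fibroblasts were sequenced as 2 bulk libraries. Nothing in the labels says whether replicate libraries came from separate animals, so their spread may be technical.

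Mef2c, Gata4 and Tbx5 are transcription factors of the embryonic heart that bind together at the control regions of heart muscle genes. Forced together into fibroblasts, they switch on part of the cardiomyocyte programme, and the resulting cells are called induced cardiomyocyte-like cells. Cells that receive fewer of the factors are known to convert less well, and fibroblasts already express Gata4 and some Mef2c of their own.

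Detection of all 3 factors went with depth. The 235 barcodes with all 3 had a median total of 47381 UMIs and a median of 6694 detected genes, while the barcodes with none had a median of 2325 UMIs and 977 genes. The median total was 31649.5 UMIs in the 1736 barcodes with 1 factor and 46923 in the 1279 barcodes with 2. For this reason the gene comparisons below used barcodes matched 1 to 1 on their totals, within 10%. The 24-month and neonatal libraries shared 11 barcode sequences. Of these 11, 6 passed the filter in both libraries and 1 was among the 235.

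Most of the 235 barcodes held few copies of Tbx5. The Tbx5 count had a lowest value of 1, a median of 1 and a highest value of 10, and 151 barcodes (64.3%) held exactly 1. For Gata4 the lowest count was 1, the median 2 and the highest 12, with 66 barcodes at 1. For Mef2c the lowest count was 1, the median 12 and the highest 155, with 34 barcodes at 1. At the edge of the rule, 9 barcodes held 1 count of each factor and 184 held at least 1 of the factors at a single count. A stricter rule of 2 or more counts of each factor left 51 barcodes (0.883% of those kept).

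**Figure D1:**
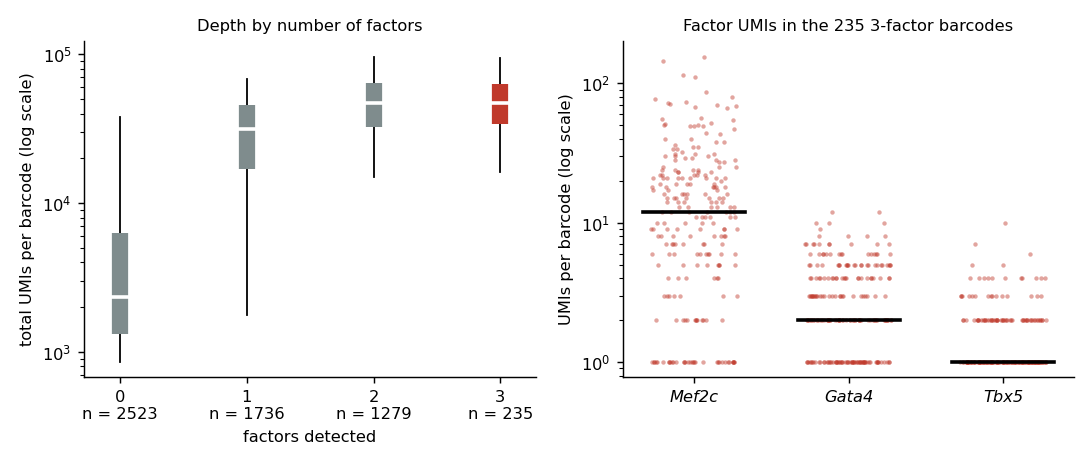
Left, total UMIs per barcode (log scale) for the 24-month barcodes in which 0, 1, 2 or 3 factors were detected (white line, median; thick bar, 25th to 75th percentile; thin line, 5th to 95th percentile). Right, UMIs of each factor in each of the 235 barcodes with all 3 (points, spread sideways; black line, median, at 12 for Mef2c, 2 for Gata4 and 1 for Tbx5). Barcodes with no factor lie at far lower totals than those with all 3.

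Over all kept 24-month barcodes, Tbx5 was seen in the fewest barcodes. It was found in 328 barcodes (5.68%) with 491 counts in all (3.23 CPM, counts scaled to a total of 1000000), of which 379 lay in the 235. Mef2c was seen in 38.7% of barcodes (87.7 CPM) and Gata4 in 42.2% (42.2 CPM). The sequence counted for a factor can come from the introduced copy or from the cell's own gene, and the 2 cannot be told apart in these counts.

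The background of each factor differed between cell types. In 715 barcodes of a macrophage-like cluster, with a median total of 20109 UMIs, Gata4 was seen in 1.82% and Tbx5 in 0.559%, but Mef2c, which macrophages are known to express, in 46.2%. In 2474 barcodes of fibroblast-like clusters, with a median total of 41491 UMIs, the shares were 75.4% for Gata4, 6.31% for Tbx5 and 48.1% for Mef2c. In the untreated 24-month bulk libraries Gata4 measured 108 and 102 CPM, Mef2c 20.05 and 19.16 CPM, and Tbx5 1.98 and 2.27 CPM, so all 3 genes were read in fibroblasts that received no factor. How many of the counts in the 235 came from the introduced factors was not tested.

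The neonatal library held a larger share of barcodes with all 3 factors, 330 of 3828 kept (8.62%, interval 7.75% to 9.55%). When every barcode was thinned to 20000 UMIs and shallower ones were left out (2847 and 2038 barcodes), the shares were 3.01% at 24 months (88 of 2926, interval 2.42% to 3.69%) and 7.21% in the neonatal library (129 of 1790, interval 6.05% to 8.50%). At 2000 UMIs they were 0.0440% and 0.266%. The intervals cover counting error only, and with 1 library per age no test of age was possible.

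The 235 barcodes carried fibroblast markers. Summed over the barcodes, 15 fibroblast identity genes reached 10532 CPM, against 372 CPM for 9 cardiomyocyte defining markers, 637 CPM for 15 macrophage markers and 326 CPM for 12 endothelial markers. Of the cardiomyocyte sum, Tnnt2 alone held 355 CPM. The macrophage sum rests on few barcodes. Per barcode these markers had a median of 1.15 counts per 10000, a 95th percentile of 3.96 and a highest value of 212. All 10 markers of T, B and NK cells were at 0. Col1a1, the main fibrillar collagen chain, was seen in 232 of 235 barcodes, and Dcn, the small matrix proteoglycan decorin, also in 232. Myh6, the adult cardiac myosin heavy chain, was at 0 counts in the matched barcodes with all 3 factors.

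Clustering of the whole library placed 123 of the 235 (52.3%) in cluster 2 of 455 barcodes, which was led by Clu, Scg2, Tnnt2, Mustn1 and Myl7 and was left unnamed. Among its leading genes, Tnnt2 was the only listed marker of another type (cardiomyocytes), and none was a fibroblast identity gene. Even so, 12 of 15 fibroblast identity genes were high in it, beside 1 cardiomyocyte defining marker. Mef2c was among those leading genes, so this share is a description. A further 48 and 46 barcodes lay in the largest fibroblast-like clusters, 0 and 1, 7 in a cluster led by cell division genes and 2 in a cluster led by interferon-stimulated genes. Another 2 lay in the macrophage-like cluster, 3 in a cluster with both fibroblast and macrophage markers and 4 in shallow clusters. In total 226 of the 235 lay in clusters 0, 1, 2, 8 and 9, where fibroblast markers were high. Of the 2523 barcodes with no factor, 431 lay in these clusters and 15 in cluster 2.

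Across all kept barcodes, 185 barcodes with all 3 factors were paired with 185 barcodes with none (median totals 42865 and 42432 UMIs), and 50 found no partner. Counts were summed over each side. A gene was called higher or lower when the summed CPM differed by more than 1.5-fold and the higher side had at least 20 CPM. A gene could therefore enter through its level on a single side. Of 6184 genes at that level, 742 were higher in the barcodes with all 3 factors (12.0%) and 343 were lower (5.55%). The matched groups differed in cell type. Of the barcodes with no factor, 39 were macrophage-like, against 0 with all 3, and the summed macrophage markers measured 6887 against 381 CPM, with all 13 of the 13 markers above 20 CPM called lower. The 10 largest differences in that direction were led by Atp6v0d2 (0.510 against 76.4 CPM), Npy and Ccl6 (11.8 against 831 CPM), of which Atp6v0d2 and Ccl6 are known macrophage genes.

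The comparison was therefore repeated within clusters 0, 1, 2, 8 and 9, a choice made after seeing these values. There 159 pairs were matched (median totals 40813 and 40510 UMIs) and 67 barcodes with all 3 factors found no partner. Of the 159 barcodes with all 3 factors, 97 lay in cluster 2, the cluster led by Clu, Scg2, Tnnt2, Mustn1 and Myl7, while 0 of their partners did, and each level below carries this difference. Of 6089 genes, 506 were higher (8.31%) and 187 lower (3.07%). The summed macrophage markers were 163 CPM with all 3 factors and 185 CPM with none. All levels in the following paragraphs are from these 159 pairs, as summed CPM with exact Poisson 95% intervals that cover counting error only. With 1 library, no gene was tested in the single-cell data.

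Heart muscle genes of the sarcomere, the contractile unit, were far higher in the barcodes with all 3 factors. Tnnt2, cardiac troponin T of the thin filament, measured 351 CPM (337 to 365) against 2.15 CPM (1.18 to 3.61), a ratio of 163 (97.0 to 299). Myl4, the atrial essential myosin light chain, measured 360 against 30.9 CPM, a ratio of 11.7 (10.1 to 13.5). Myl7, the atrial regulatory light chain, measured 162 against 2.61 CPM, a ratio of 62.0 (38.5 to 107). These ratios were far smaller outside cluster 2: the 103 barcodes with all 3 factors in fibroblast-like clusters measured 37.7 CPM for Tnnt2 and 46.4 CPM for Myl4, against 692 and 869 CPM for the 123 in cluster 2. The log2 ratio of Tnnt2, 6.25 over all kept pairs, was 3.87 when pairs came only from the fibroblast-like clusters and 2.50, its lowest value, when barcodes were thinned to 2000 UMIs. In pairs of the fibroblast-like clusters the direction of Myl7 turned (log2 ratio -3.005), and that of Tpm1 with it (-0.57). The Myl7 value rests on few counts. Barcodes with all 3 factors in these clusters held at most 1 Myl7 count each. Among the 159 partners with no factor, Myl7 was seen in 3, with at most 15 counts. Des, the muscle intermediate filament desmin, measured 33.6 against 0.922 CPM. Pgam2, the muscle phosphoglycerate mutase, measured 42.1 against 3.53 CPM.

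Of the 27 genes in the sarcomere list, 15 had at least 10 counts over both sides and their median log2 ratio was 3.31, beside 0.12 over all 12461 genes with 10 counts. Of the 6 at 20 CPM or more, 5 were higher and none was lower, beside 8.31% higher and 3.07% lower over all 6089 genes. The exception was Tpm1, the alpha tropomyosin that fibroblasts also use in stress fibres, at 1122 against 834 CPM. Tnnt2, Myl7, Des and Pgam2 reached 20 CPM only on the side with all 3 factors. Several genes that mark a mature cardiomyocyte were absent or near 0 on both sides. Myh6, Myh7 and Myl3 had no counts, Actn2 had 2 counts against 0, and Tnni3 had 6 against 2. Actc1, cardiac actin, had 22 counts against 0 (at least 7.29-fold higher, with 3 counts as the floor over the group), and these lay in 3 barcodes.

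**Figure D2:**
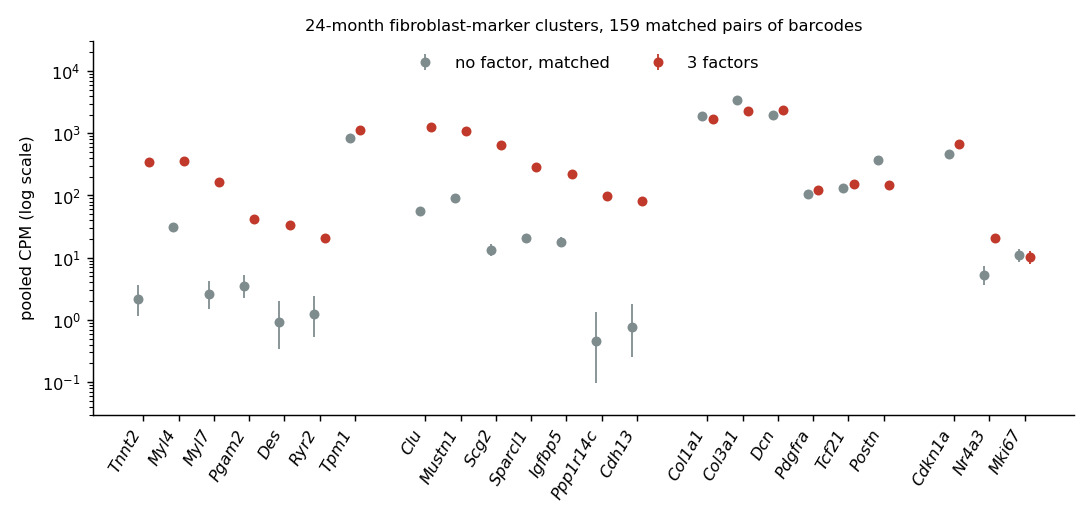
Summed CPM (log scale) of named genes in 159 barcodes with all 3 factors (red) and 159 matched barcodes with none (grey) from the 24-month clusters with high fibroblast markers. Bars are exact Poisson 95% intervals. The red points for Tnnt2 (351 CPM), Clu (1279 CPM) and Scg2 (636 CPM) lie far above the grey ones, while those for Col1a1, Dcn, Pdgfra and Tcf21 lie close to theirs.

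Among genes of calcium handling, ion channels and heart hormones, Ryr2, the release channel of the sarcoplasmic reticulum, measured 20.6 against 1.23 CPM, a ratio of 16.8 (8.27 to 39.6). Gja1, the gap junction protein connexin 43, measured 38.5 against 14.1 CPM. These were the 2 of 5 genes at 20 CPM that were called, both higher, beside 8.31% higher over all 6089 genes. Both reached 20 CPM only on the side with all 3 factors. The median log2 ratio of the 9 genes of this list with at least 10 counts was 0.51, beside 0.12 over all genes. Of the other cardiac transcription factors, 3 of 6 at that level were higher and none lower. Tbx20, a T-box factor that cardiac fibroblasts express, measured 596 against 283 CPM. Gata6, a close relative of Gata4, measured 58.3 against 38.4 CPM, and Mef2a, a relative of Mef2c, 88.0 against 53.3 CPM.

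Genes outside the cardiac lists made up most of the largest differences. Clu, the secreted chaperone clusterin, measured 1279 CPM (1252 to 1307) against 56.1 CPM (50.5 to 62.2), a ratio of 22.8. Mustn1, a small muscle and skeletal nuclear protein, measured 1086 against 90.4 CPM, a ratio of 12.0 (11.05 to 13.10). Scg2, secretogranin II of secretory granules, measured 636 against 13.2 CPM, a ratio of 48.1 (38.9 to 60.3). These 3 genes were widely detected as well as high. Clu was seen in 88.7% of the 159 barcodes with all 3 factors and in 39.0% of their partners, Mustn1 in 90.6% and 60.4%, and Scg2 in 66.0% and 16.4%.

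The steepest ratio belonged to Ppp1r14c, an inhibitor of protein phosphatase 1, at 97.3 against 0.461 CPM (637 counts against 3, ratio 211, interval 71.9 to 1032). It was seen in 83 barcodes with all 3 factors and in 1 of their partners. Cdh13, the membrane-anchored cadherin 13, measured 81.7 against 0.768 CPM and was seen in 102 and 5 barcodes. Sparcl1, a matrix protein related to SPARC, measured 286 against 20.4 CPM, and Igfbp5, a binding protein of insulin-like growth factors, 218 against 18.0 CPM. Over all kept barcodes the ratios of these 4 genes ran from 14.7 for Igfbp5 to 133 for Ppp1r14c.

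The 250 bases upstream of the start site of these genes were searched for short motifs of the 3 factor families, because these sequences are where such factors can bind. The motifs were CTA followed after 4 bases of any kind by TAG for MEF2, AGATAA for GATA and AGGTGT for T-box factors, on both strands; the searches overlap where 1 stretch holds letters of more than 1 motif. Among 27025 genes with a RefSeq promoter (build GRCm38.p6), 3.70% held the MEF2 motif, 11.4% the GATA motif and 13.6% the T-box motif. Of the genes with the largest rises in either 24-month comparison, 7 had a promoter entry, and of these 2 held a GATA motif, 0 a MEF2 motif and 0 a T-box motif. The 2 are Tnnt2, the sarcomere gene with the largest ratio, and Scg2, one of the 3 widely detected genes above, and 60 bases around the match are shown for each with the match in capitals. A match is a description of letters and not a binding site.
Tnnt2, chr1:135836143-135836202, plus strand, read 5′ to 3′: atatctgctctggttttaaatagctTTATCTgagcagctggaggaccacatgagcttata
Scg2, chr1:79440209-79440268, minus strand, read 5′ to 3′: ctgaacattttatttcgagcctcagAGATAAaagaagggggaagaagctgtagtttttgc
In Tnnt2 the capitals mark AGATAA on the opposite strand, 161 to 166 bases before the start site of 1 of its 2 promoter entries. In Scg2 they mark AGATAA 212 to 217 bases before the start site. No motif was found in these windows of Myl4, Myl7, Mustn1, Ppp1r14c and Igfbp5. Of the 25 sarcomere genes with an entry, 5 held the MEF2 motif, 6 the GATA motif and 4 the T-box motif.

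Fibroblast identity genes were present on both sides, some at similar levels and others not. Col1a1 measured 1698 against 1884 CPM (ratio 0.901, 0.878 to 0.925) and Dcn 2324 against 1940 CPM. Pdgfra, the growth factor receptor used to mark cardiac fibroblasts, measured 125 against 104 CPM. Tcf21, a transcription factor of the fibroblast lineage, measured 154 against 134 CPM. None of these 4 passed the fold.

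Of 13 fibroblast identity genes at 20 CPM, 3 were higher (Thy1 at 51.5 against 14.6 CPM, Gsn at 458 against 242 CPM, and Dpt) and 3 were lower. The lower ones were Col3a1 (2267 against 3438 CPM), Mfap5 (438 against 678 CPM) and Postn, the matrix protein periostin of activated fibroblasts (147 against 366 CPM). Over all kept barcodes the log2 ratio of Postn was -0.61, and it turned to 0.095 when barcodes were thinned to 2000 UMIs. The list's median log2 ratio was 0.23, beside 0.12 over all genes. Over all 6089 genes 8.31% were higher and 3.07% lower. Of 24 collagen and matrix genes, 3 were higher and 5 lower. Of 15 myofibroblast and TGF-beta response genes, 3 were higher (Cthrc1, Tgfb2 and Tgfb3) and 4 lower. Cthrc1, a secreted protein of activated fibroblasts, measured 423 against 89.1 CPM and was singled out after its values were seen.

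The 10 largest differences in the other direction were Cxcl10, F3, Plac8, Klf2, Ptx3, Ncam1, Ccl5, Ctla2a, Postn and Tnfrsf11b. Cxcl10, an interferon-induced chemokine, measured 5.50 against 51.3 CPM (9.34-fold lower). F3, tissue factor, measured 26.9 against 115 CPM, and Ptx3, a soluble pattern recognition protein, 92.5 against 278 CPM. Ccl5 measured 20.5 against 60.9 CPM and Plac8 135 against 445 CPM. Of 23 secretory and chemokine genes known from senescent cells, 8 were lower, among them Ccl2 (460 against 707 CPM) and Ccl7 (355 against 696 CPM), and 3 were higher, Igfbp5, Lif and Hgf. Of 21 interferon-stimulated genes, Ifi27l2a was higher, at 1975 against 1173 CPM, and Cxcl10 lower. The shares over all 6089 genes were 8.31% higher and 3.07% lower.

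Of 7 proliferation genes at 20 CPM, 6 were lower and none was higher, beside 3.07% lower and 8.31% higher over all 6089 genes. That level was needed on the higher side only, and Cdk1 and Ube2c reached it only in the barcodes with no factor. Over all 25 genes of the list, each with at least 10 counts, the median log2 ratio was -0.93, beside 0.12 over all genes. Cdk1, the mitotic kinase, measured 10.7 against 37.8 CPM and Ube2c, a ubiquitin enzyme of mitosis, 7.63 against 46.6 CPM. Mki67, the antigen of cycling cells, measured 10.2 CPM (7.93 to 12.99) against 11.1 CPM (8.66 to 13.9), so the intervals overlapped. These genes lay in few barcodes: Mki67 was seen in 12 of 159 barcodes with all 3 factors and in 9 of 159 with none. The direction for Mki67 changed with the processing, and so did that of the list: its median log2 ratio of -0.92 over all kept barcodes became 0.36 when thinned to 2000 UMIs, 0.21 within clusters and 0.79 with 2 or more counts of each factor.

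The cell cycle inhibitors went in different directions. Cdkn1a, encoding p21, measured 667 against 465 CPM (ratio 1.43, 1.37 to 1.503), which did not pass the fold. Cdkn2a, encoding p16 and p19Arf, measured 17.9 against 47.6 CPM and Cdkn2b, encoding p15, 18.2 against 36.3 CPM. Over all kept barcodes the log2 ratio of Cdkn2b was -0.44. Its direction there turned when barcodes were thinned to 2000 UMIs (0.21) and when they were matched within clusters (0.11). Btg2, an antiproliferative target of p53, measured 369 against 151 CPM. Nr4a3, the nuclear receptor manipulated elsewhere in this series, measured 20.5 CPM (17.1 to 24.2) against 5.23 CPM (3.62 to 7.30), a ratio of 3.92 (2.67 to 5.89). It was seen in 44 of 159 barcodes and in 17 of 159. Of 14 Nr4a and immediate early genes at 20 CPM, Nr4a3 and Fosb were higher and Ier3 was lower. Over all 6089 genes the shares were 8.31% higher and 3.07% lower. Among energy genes, none of 14 glycolysis genes passed the fold, and of 18 respiratory chain and mitochondrial energy genes only Fabp3, a fatty acid carrier, did, at 80.3 against 28.3 CPM.

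The 235 barcodes differed widely among themselves. Tnnt2 was seen in 127 of them (54.0%, interval 47.4% to 60.5%), with a median of 1 and a highest count of 659. The 24 barcodes with the most Tnnt2 held 81.5% of its counts. For Myl7, seen in 37 barcodes (15.7%), the corresponding 24 held 98.7%, and for Myl4, seen in 167 (71.1%), they held 84.5%. Clu and Mustn1 were spread more evenly, with 55.2% and 50.7% of their counts in the top 24, and Col1a1 most evenly of these, with 31.1%. The summed CPM of the sarcomere genes above thus rests on a minority of barcodes.

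Of 6 genes considered together (Tnnt2, Myl4, Myl7, Mustn1, Clu and Scg2), all were detected in 29 barcodes (12.3%), 5 in 48, 4 in 64, 3 in 54, 2 in 27, 1 in 11 and none in 2. The median total of barcodes with Tnnt2 was 47089 UMIs and that of barcodes without it 48959 UMIs, so the barcodes with Tnnt2 were not the deeper ones. In the 53 barcodes with at least 10 Tnnt2 counts, Col1a1 was seen in all 53, at 1588 CPM, beside 1711 CPM in the other 182. Myl7 measured 429 CPM in the 53 and 4.41 CPM in the 182. Mef2c measured 777 and 261 CPM, Gata4 71.1 and 60.8 CPM, and Tbx5 38.5 and 30.5 CPM. In the macrophage-like cluster, which should lack these transcripts, Col1a1 was seen in 37.2% of barcodes at 34.0 CPM and Tnnt2 in 4.62% at 3.46 CPM, at a median total of 20109 UMIs.

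The 235 barcodes were also grouped by their Mef2c count. The rule used this count and Mef2c was a leading gene of cluster 2, so the values are a description. Cluster 2 held 2 of the 34 barcodes with 1 Mef2c count, 8 of the 26 with 2 to 4, 16 of the 42 with 5 to 9 and 97 of the 133 with 10 or more. Clu measured 222, 488, 632 and 1389 CPM in these groups. Mustn1 followed the same order, at 73.5, 404, 580 and 1235 CPM. Tnnt2 did not: it measured 74.7, 38.9 and 53.1 CPM in the first 3 groups and 578 CPM in the last. The level of the first group rests on few barcodes, as single barcodes there held 65, 21 and 17 Tnnt2 counts. Scg2 measured 56.8, 185, 180 and 675 CPM. Col1a1 lay between 1610 and 1723 CPM in all 4 groups. Median totals ran from 42853 to 49712 UMIs, highest in the last group, and the parts of depth and of cluster 2 in this order were not tested.

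**Figure D3:**
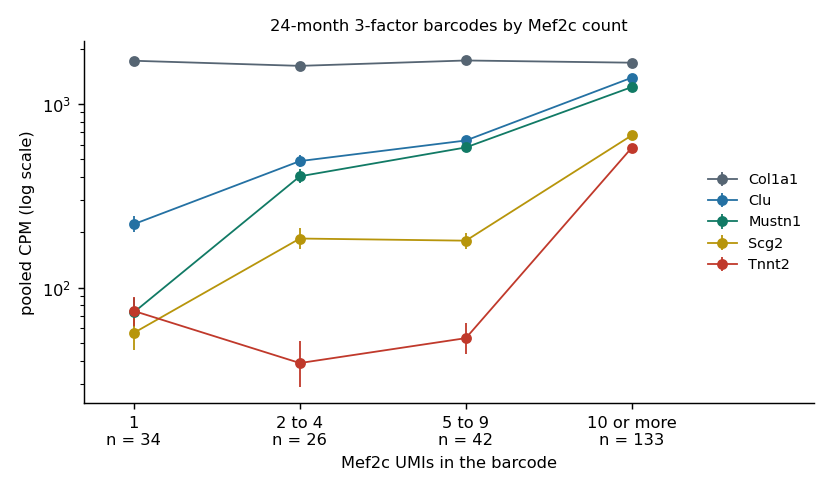
Summed CPM (log scale) of 5 genes in the 235 barcodes grouped by their Mef2c count (horizontal axis, with the number of barcodes), with exact Poisson 95% intervals. These cover counting error only and not the spread between barcodes. Clu and Mustn1 were higher in each successive group, Tnnt2 was at 578 CPM only with 10 or more Mef2c counts, and Col1a1 lay between 1610 and 1723 CPM.

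Barcodes with all 3 factors in cluster 2 and in the fibroblast-like clusters differed in these genes. The 123 in cluster 2 measured 692 CPM for Tnnt2, 1729 CPM for Clu and 1.23 CPM for Mki67. The 103 in fibroblast-like clusters measured 37.7, 284 and 19.6 CPM. Those genes helped to define the clusters, so the values are a description. The summed Tnnt2 level of the 103 was above the 3.27 CPM (2.23 to 4.61) of the 416 barcodes with no factor in the same clusters, whose median total was lower, at 19256 UMIs. It rests on few barcodes: most of the 103 held 0 Tnnt2 counts, while single barcodes held 65, 34, 21, 20 and 16.

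Barcodes with other combinations of the factors were set beside them within the clusters with high fibroblast markers, keeping totals between 16113 and 94721 UMIs, the 5th and 95th percentiles of the 235 (2491 barcodes). Tnnt2 was seen in 6.28% of 239 barcodes with no factor (2.57 CPM), 8.98% of 768 with Gata4 alone (5.07 CPM) and 17.9% of 184 with Mef2c alone (61.4 CPM). It was seen in 22.4% of 1029 barcodes with Mef2c and Gata4 (64.1 CPM, interval of the share 19.9% to 25.1%) and in 53.9% of 206 with all 3 (296 CPM, 46.8% to 60.8%). In the 36 barcodes with Gata4 and Tbx5 it was seen in 16.7% (11.9 CPM). These are shares of barcodes in 1 library, with no test between them. Barcodes with Mef2c and Gata4 and those with all 3 also differed in Mef2c itself, at 106 and 378 CPM. Cluster 2 held 19.8% and 54.4% of them.

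The 25 barcodes with Mef2c and Tbx5 but no Gata4 count had Tnnt2 in a like share of barcodes. Tnnt2 was seen in 52.0% of them (31.3% to 72.2%) at 986 CPM, and Myl4 measured 1610 CPM beside 430 CPM with all 3. Clu measured 759 CPM with Mef2c and Tbx5, 1071 CPM with all 3, 383 CPM with Mef2c and Gata4 and 133 CPM with Gata4 and Tbx5. Scg2 followed the pattern of Tnnt2, at 539, 501, 121 and 36.9 CPM in the same order. Median totals were 37315 UMIs with Mef2c and Tbx5, 46892 with all 3 and 47229 with Mef2c and Gata4. Mef2c itself measured 447, 378 and 106 CPM in these groups, and cluster 2 held 60%, 54.4% and 19.8% of their barcodes. The parts of the Mef2c level, of Tbx5 and of cluster 2 in these differences were not tested. A factor with no count in a barcode can still be present below detection, and Tbx5 alone was seen in 4 barcodes only, with 0 Tnnt2 counts.

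**Figure D4:**
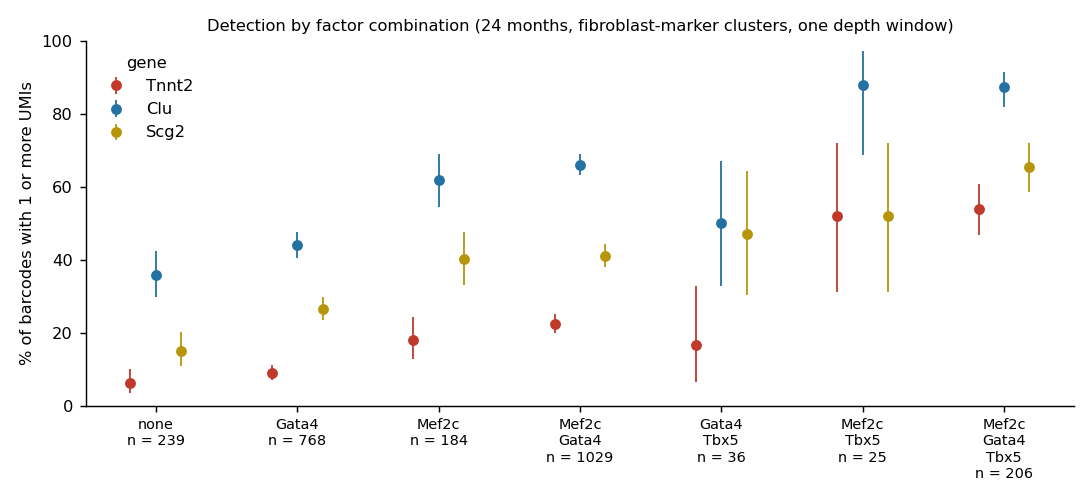
Share of barcodes (vertical axis, percent) with at least 1 UMI of Tnnt2 (red), Clu (blue) or Scg2 (yellow), by the factors seen in the barcode (horizontal axis, with the number of barcodes), within 1 window of totals in the clusters with high fibroblast markers. Bars are exact binomial 95% intervals. For Tnnt2 the combinations with Mef2c and Tbx5 (52.0%) and with all 3 (53.9%) lie above the others. Their Mef2c levels were also higher, at 447 and 378 CPM, beside 106 CPM with Mef2c and Gata4.

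Tnnt2 was also read in barcodes where all 3 factors were missing. In the 2174 such barcodes with totals below 16113 UMIs it measured 84.5 CPM and was seen in 7.73%. In 15 barcodes of cluster 2 with no factor, whose median total was 3513 UMIs, it measured 570 CPM (422 to 753) and Clu 2373 CPM. None of the 15 was among the matched pairs. At such totals a factor could have been missed. The barcodes with no factor are therefore not a group known to lack the factors.

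The neonatal library gave a like comparison with fewer pairs, 72 over all kept barcodes (median totals 30958 and 30409 UMIs), with 2921 of 6613 genes higher (44.2%) and 652 lower (9.86%). No partner was found for 258 of its 330 barcodes with all 3 factors, whose median total was 53216 UMIs. Of the 72 with none, 22 were macrophage-like, against 1 with all 3. A neonatal cluster led by Nppa, Nid2 and Gja1 held 49 of the 72 with all 3 and 0 with none. Tnnt2 measured 7020 CPM with all 3 factors and 1009 CPM with none, and Myl7 4633 and 51.5 CPM. Myh6, at 0 in the 24-month pairs, measured 399 and 2.04 CPM, and Ryr2 153 and 0.409 CPM. Clu measured 2073 and 89.5 CPM, and Mustn1 868 and 65 CPM, beside 24-month levels of 1154 and 989 CPM with all 3 factors over all kept barcodes. Nr4a3 measured 2.43 CPM with all 3 factors in the neonatal pairs and 17.6 CPM in the 24-month pairs. With 1 library per age, age and library cannot be told apart.

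The bulk libraries at 18 months gave a replicated view of the same treatment, in which each value is a mean over all cells of a sample. In bulk samples, a change in the number of cells of a type and a change in RNA per cell cannot be told apart. Tbx5 measured 0.464 and 0.746 CPM with LacZ and 243 and 298 CPM with MGT. Mef2c measured 8.05 and 10.4 CPM with LacZ and 150 and 180 CPM with MGT, and Gata4 112 and 112 against 216 and 250 CPM. All 3 factors were higher in every MGT library than in every LacZ library, with log2 changes of 8.80 ± 0.20 (SE) for Tbx5, 4.17 ± 0.14 for Mef2c and 1.06 ± 0.09 for Gata4 in edgeR's quasi-likelihood fit (n = 2 libraries per group). Over all kept 24-month barcodes Tbx5 was at 3.23 CPM; the assays differ, and the levels were not compared by a test.

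In that fit 1395 of 16368 genes were higher with MGT (8.52%) and 1318 lower (8.05%) at an adjusted p under 0.05. Without MGT replicate 2 these counts were 784 and 668, without LacZ replicate 1 they were 872 and 648, and without LacZ replicate 2 they were 825 and 678. Tnnt2 measured 4.11 and 2.49 CPM with LacZ and 248 and 254 CPM with MGT (log2 change 6.24 ± 0.26, adjusted p = 1.42e-07). Clu rose from 5.97 and 9.33 CPM to 289 and 293 CPM (5.26 ± 0.14, adjusted p = 6.51e-17), and Scg2 from 0.348 and 0.995 to 39.8 and 45.5 CPM (5.996 ± 0.25, adjusted p = 3.55e-14). The groups did not overlap for any of these 3 genes. Myl4, Myl7, Mustn1, Ppp1r14c, Cdh13, Igfbp5, Scara3 and Mlana also rose, with log2 changes from 1.15 for Scara3 to 8.51 for Myl7. The LacZ libraries held almost no counts of Myl7 (0.0579 and 0 CPM) and Ppp1r14c (0.116 and 0 CPM), so the size of these changes rests on them: without LacZ replicate 1 and without LacZ replicate 2 it was 10.83 and 7.71 for Myl7 and 9.65 and 5.62 for Ppp1r14c. The call of Mlana (adjusted p = 0.0225) was lost without MGT replicate 2 (adjusted p = 0.168), LacZ replicate 1 (0.0624) or LacZ replicate 2 (0.174).

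Of the 12 genes with the largest single-cell ratios over both 24-month comparisons, Sparcl1 was the exception. It measured 4.58 and 5.41 CPM with LacZ and 3.51 and 3.00 CPM with MGT (log2 change -0.61 ± 0.24, adjusted p = 0.0816), so its higher level in barcodes with all 3 factors had no counterpart in the bulk mean. Tbx20 (0.21 ± 0.10, adjusted p = 0.168) and Gja1 (0.07 ± 0.09, adjusted p = 0.674) also missed the threshold, Tbx20 passing it only without LacZ replicate 2 (adjusted p = 0.0431). Nr4a3 rose from 8.46 and 11.8 CPM to 22.6 and 32.1 CPM (1.43 ± 0.18, adjusted p = 5.41e-06). Postn, lower in the barcodes with all 3 factors, measured 174 and 149 CPM with LacZ and 175 and 167 CPM with MGT (0.08 ± 0.09, adjusted p = 0.619). Col1a1 rose, by 0.74 ± 0.10.

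**Figure D5:**
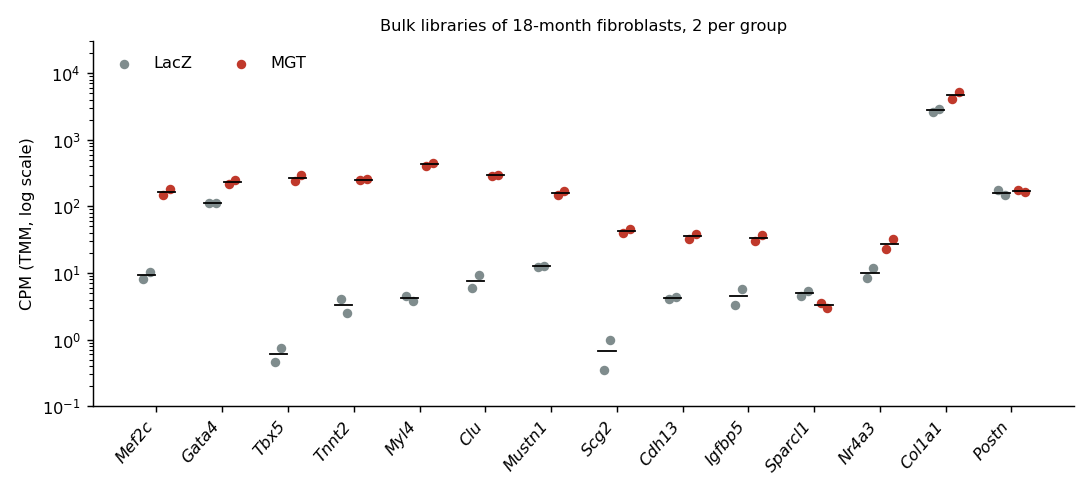
CPM (log scale) in each 18-month bulk library with LacZ (grey) or MGT (red), 2 libraries per group, with the group mean as a black line. For Tnnt2 the LacZ libraries lie at 4.11 and 2.49 CPM and the MGT libraries at 248 and 254 CPM, while Sparcl1 and Postn show no such gap.

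Set against the bulk fit, the genes higher in the barcodes with all 3 factors within the clusters with high fibroblast markers were often higher with MGT. Of 500 such genes tested in bulk, 196 (39.2%) were higher with MGT and 20 (4%) lower. Of 187 lower genes, 68 (36.4%) were lower with MGT and 21 (11.2%) higher. Among 5362 genes between the folds the shares were 6.71% higher and 13.5% lower. Over all kept barcodes 229 of 736 higher genes (31.1%) and 53 of 339 lower genes (15.6%) went the same way in bulk. The opposite way went 48 of the higher genes (6.52%) and 42 of the lower genes (12.4%). Among 5063 genes between the folds in that comparison, 6.24% were higher with MGT and 13.98% lower. The 15.6% of the lower genes was thus close to the share between the folds, while the 31.1% of the higher genes was well above it. These are counts without a test.

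The gene lists in bulk can be read the same way, beside 8.52% higher and 8.05% lower over all 16368 genes. Of 22 sarcomere genes tested, 15 rose and none fell, among them Actc1 and Ttn, which were sparse in the single cells. Actn2 (1.43 ± 1.68, adjusted p = 0.632), Myh6 and Tnni3 missed the threshold. Of 25 proliferation genes 22 fell and none rose. Cxcl10 (-0.28 ± 0.46, adjusted p = 0.748) and F3 missed the threshold, whereas Ptx3 fell (-0.64 ± 0.10, adjusted p = 5.18e-05). Of 15 fibroblast identity genes 4 rose (Col1a1, Gsn, Mfap5 and Thy1) and 5 fell (Cd34, Col3a1, Dpt, Pdgfra and Tcf21). Their median log2 change was 0.05. Pdgfra and Tcf21 fell by 0.52 and 0.77 on the log2 scale, although neither passed the fold between barcodes. Mfap5 and Dpt went the opposite way in bulk to their calls between barcodes. Cdkn2b passed the threshold with MGT (0.48 ± 0.16, adjusted p = 0.0334), but not without MGT replicate 2 (0.371), without LacZ replicate 2 (0.264) or in DESeq2 (0.0669). Cdkn2a missed the threshold (adjusted p = 0.487).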

How the data were processed

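The authors deposited single-cell matrices of UMI counts per gene and barcode, and bulk tables of read counts per gene; the counting tool and build of the single-cell matrices are not given in the sources used here. The submitters' processing notes name Trimmomatic 0.36, Subread 1.5.1 with featureCounts, SAMtools and build mm10. Bulk totals were 14489836 to 18796708 counts per LacZ or MGT library. Members and gene lists (25 lists) were chosen with earlier results of these data known. Barcodes needed 500 genes and under 20% mt- counts; no doublet caller was run, and leaving out the 10% of barcodes with the largest totals was tried instead. Clusters came from scanpy 1.11.5 (2000 variable genes, 50 components, 15 neighbours, resolution 0.5). Summed CPM was compared between matched barcodes without a test. Named genes were the 3 factors, Nr4a3, Cdkn1a, Cdkn2a, Cdkn2b, Mki67, the 10 largest ratios each way at 50 CPM or more, and up to 6 genes per list. Bulk counts of 12 libraries were fitted together with edgeR 4.0.16 (quasi-likelihood, Benjamini-Hochberg; R 4.3.3). On simulated data the bulk fit called 195 of 200 changed genes. This simulation gave every gene the same spread and changed well-counted genes only, which the real libraries need not follow. The single-cell ratio passed the 1.5-fold line for 200 of 200 genes that had been changed by more than that. This second simulation had no spread between barcodes, so its outcome was fixed in advance and checks the calculation only.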

Additional observations from a re-analysis of the deposited data

How the results depend on the processing

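Clu, Scg2, Tnnt2, Cdh13, Ppp1r14c, Igfbp5, Sparcl1, Scara3, Mlana, Hspb7 and Nr4a3 kept their direction in all 10 single-cell alternatives, with log2 ratios of 2.50 to 7.35 for Tnnt2 (6.25 as reported over all kept barcodes) and 3.04 to 5.22 for Clu (5.01). The clusters with high fibroblast markers and the thinning to 20000 UMIs were chosen after seeing the data; the rest were planned. The 742 genes higher became 1129 with no match on totals, 2405 thinned to 2000 UMIs, 268 matched within clusters, 338 in fibroblast-like clusters, 1281 with 2 or more counts of each factor, 214 at 2-fold and 367 at 50 CPM or more. The 343 genes lower became 81 within clusters, 105 in fibroblast-like clusters, 203 at 2-fold, 170 at 50 CPM or more and 187 in the clusters with high fibroblast markers. The sarcomere median of 3.31 became 2.91 with another seed for the match, 2.43 with no match, 1.53 thinned, 2.20 within clusters, 2.28 in fibroblast-like clusters, 3.01 with 2 or more counts and 2.87 without the largest totals. The share of 4.07% became 0.0440% and 3.01% thinned to 2000 and 20000 UMIs and 0.883% with 2 or more counts. The direction of Mki67 (log2 ratio -0.60) turned with no match (0.38), thinned (1.88), within clusters (1.28), in fibroblast-like clusters (0.78), with 2 or more counts (2.34) and under 10% mitochondrial counts (0.028). Cdkn2b (-0.44) turned thinned (0.21) and within clusters (0.11). The proliferation median (-0.92) turned thinned (0.36), within clusters (0.21) and with 2 or more counts (0.79). Myl7 (5.95) turned within clusters (-3.01) and in fibroblast-like clusters (-3.005, on few counts), as did Tpm1 (0.71, to -0.24 and -0.57). Postn (-0.61) turned thinned (0.095), Ccl6 (-6.13) in fibroblast-like clusters and in clusters with high fibroblast markers (0.77 in each), Cybb (0.58) and Npy (2.32) in fibroblast-like clusters and Ctss (0.041) in clusters with high fibroblast markers. Apart from thresholds and smaller groups, which change counts by construction, the cause was not tested. In bulk, leaving out 1 library gave 784 to 1223 genes higher and 648 to 913 lower; the lone library was assumed to vary like the others. Leaving out 1 library gave Dcn -0.056 to 0.15 and Postn -0.015 to 0.20, lowest without MGT replicate 1 and without LacZ replicate 2. Replicate numbers did not pair the libraries (correlations -0.0106, 0.0624 and -0.00313), and a replicate block gave 1496 higher and 1454 lower. DESeq2 gave 1136 and 1068. The depth of a barcode limits what can be read: 2174 of 2523 barcodes with no factor lay below the 5th percentile of totals of those with all 3.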
